A study of Mus musculus with 4 samples.

Results

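Cholesterol synthesis was followed in adult mouse kidney through 8 genes: Srebf2, which encodes the transcription factor SREBP2, and Hmgcs1, Idi1, Fdft1, Sqle, Lss, Cyp51 and Dhcr7, which encode enzymes of the pathway. The 8 were taken by symbol from a table of 54232 genes, and each symbol matched 1 row. They were named for cholesterol synthesis and uptake, but all 7 enzymes act in synthesis and no uptake receptor is among them; the genes of uptake are given below from a separate list. The libraries labelled HET came from kidneys of Tshz3+/LacZ mice, which carry LacZ in 1 copy of Tshz3 (2 libraries), and those labelled WT from kidneys of wild-type mice (2 libraries), all collected at 60 days of age. Each library of poly(A) RNA came from RNA pooled over kidneys, with 3 kidneys named per group. Preparations of a genotype are called independent, but it is not stated that their kidneys differed, so a p-value here covers spread between RNA pools, which may be technical. The sources used here give neither sex nor strain, nor how LacZ was placed in Tshz3.

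Cholesterol is built from acetyl-CoA by way of mevalonate, isoprenoid units, squalene and lanosterol. SREBP2 is held in the endoplasmic reticulum with SCAP and the INSIG proteins while sterols are plentiful; when they fall, it is cut in the Golgi and its free part enters the nucleus, where it raises transcription of the enzyme genes. In kidney, sterols are needed for the large membrane area of tubule cells, and tubule cells also take up filtered proteins and what they carry through receptors such as megalin.

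Promoter letters are shown for the regulator gene and for a pair of enzyme genes, to set the letters known to bind the pathway's factors beside the levels that follow. The windows are from RefSeq (GRCm38.p6), 5′ to 3′ on the strand of the gene. They cover up to 250 bases before the RefSeq start, and stop before the first exon base of the gene in the table. Capitals mark TCACNCCAC or its first 8 letters (the sterol regulatory element type, known to bind SREBP) and CCAAT or its reverse complement (known to bind NF-Y).
Hmgcs1, plus strand, chr13:119690101-119690350: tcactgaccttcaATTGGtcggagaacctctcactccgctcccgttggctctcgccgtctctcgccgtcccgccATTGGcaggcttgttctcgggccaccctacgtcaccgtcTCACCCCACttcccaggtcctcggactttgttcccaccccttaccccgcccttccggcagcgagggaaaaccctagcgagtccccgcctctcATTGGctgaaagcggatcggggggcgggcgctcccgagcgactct
Srebf2, plus strand, chr15:82147019-82147180: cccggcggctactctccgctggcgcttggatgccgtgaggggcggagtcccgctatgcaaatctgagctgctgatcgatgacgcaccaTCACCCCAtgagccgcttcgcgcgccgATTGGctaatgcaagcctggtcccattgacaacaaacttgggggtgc
Lss, plus strand, chr10:76531355-76531587: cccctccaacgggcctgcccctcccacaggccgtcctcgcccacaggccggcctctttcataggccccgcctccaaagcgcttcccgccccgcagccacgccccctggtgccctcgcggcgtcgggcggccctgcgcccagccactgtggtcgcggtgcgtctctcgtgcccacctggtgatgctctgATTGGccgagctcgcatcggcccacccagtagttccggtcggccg
A RefSeq promoter was at hand for 6 of the 8 genes, Srebf2, Hmgcs1, Idi1, Lss, Cyp51 and Dhcr7, and not used for Fdft1 and Sqle. Over the full 250 bases and both strands, TCACNCCAC was found in 1 of the 6, Hmgcs1, and in 1.05% of all 32851 promoter windows. The shorter TCACNCCA, which was chosen after the sequences were seen and lies within the longer motif, was found in Hmgcs1 and Srebf2 and in 3.67% of all windows. No other form of the element was searched, so a gene without a match, such as Cyp51, may still hold the element. CCAAT was found in all 6 genes, against 33.8% of all windows, though the count is per gene and the share per window. For Dhcr7 it was in 1 of its 3 windows, whose RefSeq start lies 7069 bases inside the gene, and not in the window nearest the gene start. For Cyp51 and Idi1 the matches lay past the first base of the gene, and so outside the stretch described above. GGGCGG, the GC box known to bind Sp1, was found in all 6 as well, against 32.7% of windows. CANNTG, the E-box, was found in 4 of the 6, against 66.2% of windows; 1 of its matches, in Hmgcs1, overlapped a CCAAT match.

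Depth and labels were checked first. Reads recovered from the table numbered 62631750 and 70792042 in the libraries labelled HET, and 70319173 and 70717617 in the WT libraries. Tshz3, on chromosome 7, was at 0.833 and 0.760 scaled TPM (137 and 145 reads) in the libraries labelled HET, against 0.653 and 0.723 scaled TPM (104 and 127 reads) in WT, a log2 fold change of 0.13 ± 0.17 (SE) at an adjusted p of 0.790 by limma. Both libraries labelled HET lay above both WT libraries, so the genotype labels have no check from the level of Tshz3, and each direction below is that of the libraries as labelled. All 23 markers of nephron segments had reads in all 4 libraries, at 10.3 scaled TPM or more. Adrenal cortex, which makes steroid from cholesterol and lies against the kidney, had low levels of its markers: the 8 summed to 4.76 and 6.13 scaled TPM in the libraries labelled HET and 6.11 and 6.85 in WT, mostly from Star and Hsd3b1. Cyp11b2, Cyp21a1 and Nr5a1 had 0 reads in at least 1 library. For some markers WT replicate 2 stood apart, with 32 reads of Cyp11a1, 19 of Cyp11b1 and 15 of Cyp21a1, against at most 10, 2 and 3 in the other libraries. Hsd3b1 was also highest there in scaled TPM, by little (3.95, against 3.83 in WT replicate 1). Mc2r went the other way, with 15 and 27 reads in the libraries labelled HET against 8 and 6 in WT. Star was highest in HET replicate 2 (335 reads, against 278 in WT replicate 2). Macrophage and dendritic cell markers, with 8 of 9 estimates above 0, summed to 840 and 629 scaled TPM in the libraries labelled HET, against 434 and 439 in WT. Genes with male-biased expression in mouse kidney had 9 of 9 estimates below 0 and summed to 32030 and 47990 scaled TPM in the libraries labelled HET, against 94440 and 48330 in WT, most of it from Kap. Xist was at 60.5 and 57.7 scaled TPM in the libraries labelled HET, against 18.1 and 39.7 in WT, and the Y-linked Ddx3y at 4.02 and 17.0 against 21.1 and 16.2, so that every library held reads of both. The part of these marker levels in the results below was not tested. In bulk RNA, fewer cells of a type and less RNA per cell cannot be told apart.

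The 8 genes spanned a wide range of levels. Levels are TPM, a share corrected for exon length so that genes can be set side by side, and scaled between libraries (scaled TPM). They rest on alignments marked unique and on the summed length of all annotated exons. A gene with few uniquely aligned reads or many annotated exons can therefore read low, and the order below is that of this measure. The mean of Hmgcs1 over all 4 libraries, 277 scaled TPM, was 211 times that of Idi1, 1.32. In order came Hmgcs1, Cyp51 (200.4), Srebf2 (28.2), Sqle (19.8), Dhcr7 (12.1), Fdft1 (11.4), Lss (5.14) and Idi1. The ranges over the 4 libraries overlapped between Sqle and Dhcr7 and between Dhcr7 and Fdft1, so these neighbours did not differ beyond their spread; the other neighbours did not overlap, though the lowest Hmgcs1 value (230.3) lay just above the highest Cyp51 value (229). Of the genes tested, 98.5% lay below Hmgcs1 and 25.8% below Idi1. Hmgcs1 and Cyp51 together made 83.6% and 85.7% of the summed level of the 8 genes in the libraries labelled HET, and 87.9% and 86.2% in WT.

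**Figure D1:**
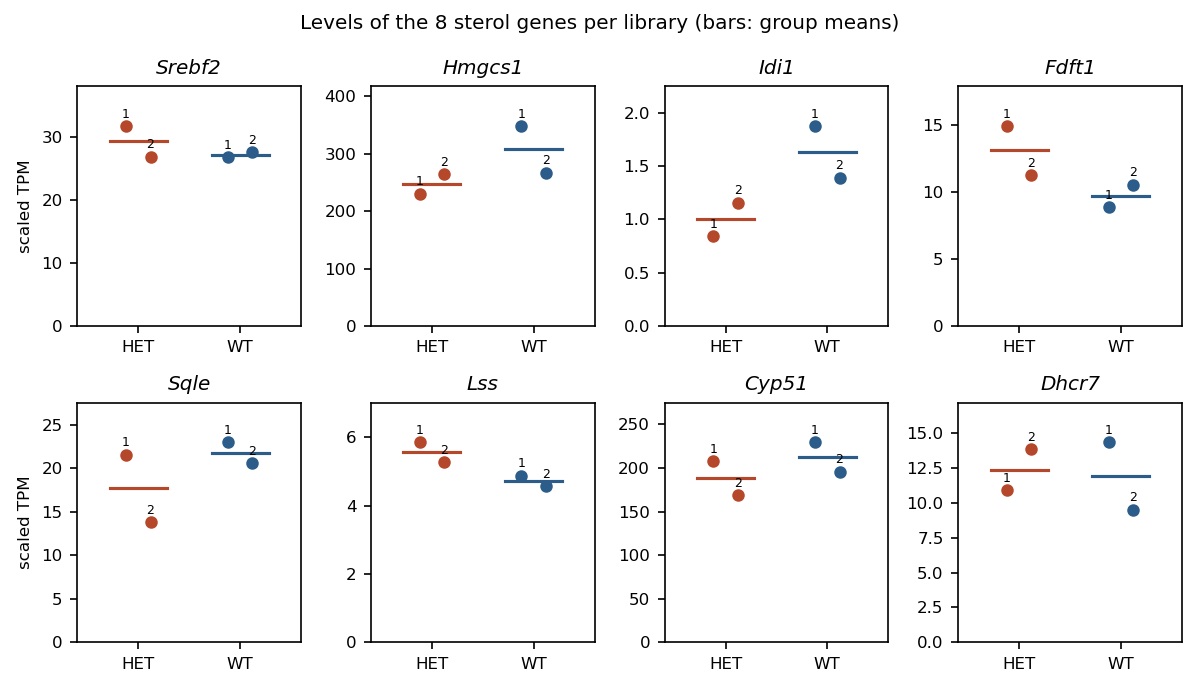
Scaled TPM (vertical axes, from 0) of each of the 8 genes in the 2 libraries labelled HET (left) and the 2 WT libraries (right); points are libraries with their replicate numbers, bars group means. Idi1 and Hmgcs1 lay lower and Fdft1 and Lss higher in both libraries labelled HET, and the other 4 genes overlapped.

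No gene of the 8 passed the test between genotypes. The count called was 0 of 8 (limma on log2(scaled TPM + 0.5), Benjamini-Hochberg adjusted p below 0.1 over 22356 genes), where 0.00895% of all tested genes were called, 2 in all, with 0.00447% higher and 0.00447% lower. At an unadjusted p under 0.05 there were 0 of the 8 by limma, against 7.26% of all genes. By limma-voom on the recovered reads, which called 0 of all genes, Idi1 alone had an unadjusted p under 0.05 (adjusted p = 0.583), against 7.88% of all genes. The estimates were split, 4 above 0 and 4 below, with a median log2 fold change of -0.052 beside 0.0067 for all tested genes. Both libraries labelled HET lay above both WT libraries for Fdft1 and Lss and below for Hmgcs1 and Idi1; that is 4 of 8 without overlap, where 45% of all tested genes had none (21.8% above and 23.1% below). For 5 of the 8 the larger log2 gap between pools of 1 genotype exceeded the gap between the genotype means. Without scaling of the TPM the median of the 8 was 0.20 and that of all genes 0.20, and without WT replicate 2 the median of the 8 was -0.25; without WT replicate 1 it was 0.0097.

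**Figure D2:**
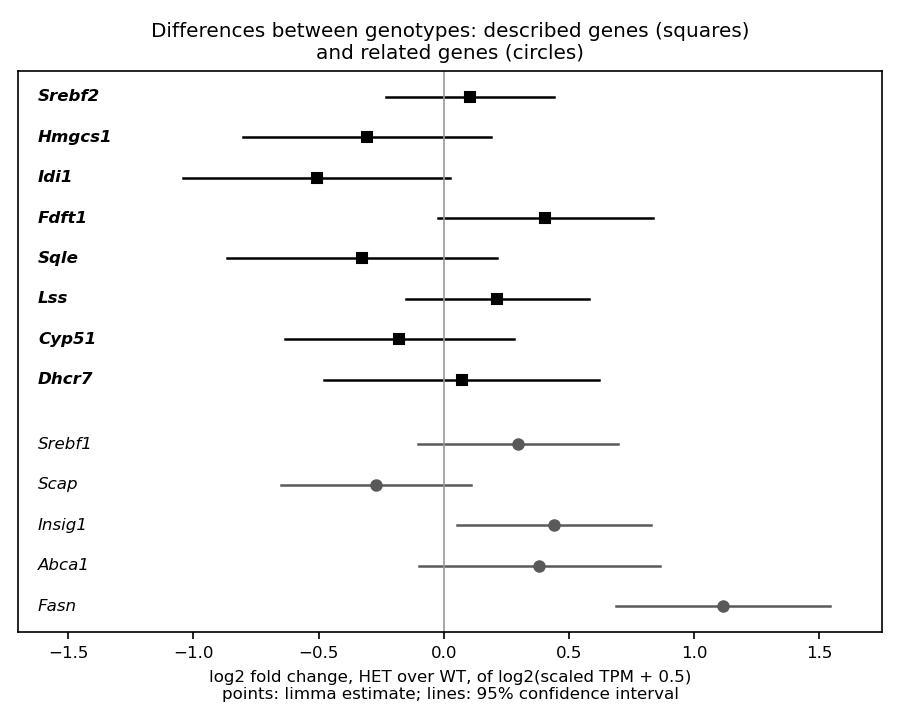
Log2 fold change, HET over WT (horizontal axis), with 95% confidence intervals from limma, for the 8 genes (squares) and 5 related genes (circles). All 8 squares have intervals that include 0, while those of Insig1 and Fasn lie above 0 without an adjustment for the number of genes.

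Srebf2, the gene of the pathway's regulator (ENSMUSG00000022463, mm10 chromosome 15, 82147181 to 82205379), varied least. It was at 31.7 and 26.9 scaled TPM in the libraries labelled HET, against 26.7 and 27.5 in WT. HET replicate 1 stood above the other 3 libraries, and the groups overlapped. HET over WT, this gave a log2 fold change of 0.10 ± 0.14 (SE; 95% confidence limits -0.23 and 0.44), with an adjusted p of 0.787 by limma. Without HET replicate 1 the estimate was -0.014, and with the level of Y-linked genes as a covariate -0.012.

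Hmgcs1 encodes the cytosolic synthase that makes HMG-CoA, the precursor of mevalonate (ENSMUSG00000093930, chromosome 13, 119690379 to 119708260). Its level was 230.3 and 264 scaled TPM in the libraries labelled HET, against 348 and 267 in WT. Both values of the libraries labelled HET lay below both of WT, yet HET replicate 2 and WT replicate 2 were close together and the WT pools differed 1.30-fold. Group means were 247 ± 24.1 scaled TPM labelled HET and 308 ± 57.6 WT (SD, n = 2 each). Hmgcs1 thus had a log2 fold change of -0.31 ± 0.20 (SE; 95% limits -0.80 and 0.19), with an adjusted p of 0.635 by limma; it was -0.11 without WT replicate 1 and -0.50 without WT replicate 2. Exons of Hmgcs1 share 557 bases with Gm48342 on the other strand, which was at 82.3 and 92.1 scaled TPM in the libraries labelled HET and 97.6 and 87.8 in WT; the strand setting of the counting is not stated in these sources.

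Idi1 encodes the isomerase that turns isopentenyl diphosphate into dimethylallyl diphosphate (ENSMUSG00000058258, chromosome 13, 8885501 to 8892451). It was at 0.843 and 1.16 scaled TPM in the libraries labelled HET, against 1.88 and 1.39 in WT, from 89 and 142 reads against 192 and 157. Group means were 1.00 ± 0.223 labelled HET and 1.63 ± 0.344 WT (SD, n = 2 each). The groups did not overlap, and the ratio of the means, 0.612, was the farthest from 1 among the 8. Its log2 fold change was -0.51 ± 0.22 (SE; 95% limits -1.04 and 0.026), with an adjusted p of 0.622 by limma. Exons of Idi1 share 323 bases with Gm48574 on the other strand, which had between 4 and 10 reads a library.

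Fdft1 encodes squalene synthase, the first enzyme committed to sterols (ENSMUSG00000021273, chromosome 14, 63145150 to 63179578). It ran the other way, at 14.9 and 11.3 scaled TPM in the libraries labelled HET, against 8.86 and 10.5 in WT. The groups did not overlap, but HET replicate 2 and WT replicate 2 were again the closest values. Group means were 13.1 ± 2.58 scaled TPM labelled HET and 9.69 ± 1.18 WT (SD, n = 2 each). For Fdft1 the log2 fold change was 0.41 ± 0.18 (SE; 95% limits -0.022 and 0.83), with an adjusted p of 0.622 by limma. Without HET replicate 1 the estimate was 0.21. Of its exon bases 18.3% are shared with Ctsb, a cathepsin gene on the other strand at 347 and 299 scaled TPM in the libraries labelled HET and 279.5 and 323 in WT, and without a known strand setting reads from the shared bases cannot be told apart.

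Sqle and Lss carry squalene on to lanosterol. Sqle encodes squalene epoxidase, the oxygen-dependent step (ENSMUSG00000022351, chromosome 15, 59315077 to 59331192), and was at 21.6 and 13.8 scaled TPM in the libraries labelled HET, against 23.0 and 20.7 in WT. HET replicate 2 alone was low, and the HET pools differed 1.56-fold. Sqle had a log2 fold change of -0.33 ± 0.22 (SE; 95% limits -0.86 and 0.21), with an adjusted p of 0.636 by limma; the estimate was -0.012 without HET replicate 2 and -0.64 without HET replicate 1. Lss encodes lanosterol synthase, which closes the ring system (ENSMUSG00000033105, chromosome 10, 76531588 to 76557138), and was at 5.85 and 5.28 scaled TPM in the libraries labelled HET, against 4.87 and 4.57 in WT. These groups did not overlap, and the pools of each genotype were close, 1.11-fold apart for HET and 1.07-fold for WT. Means were 5.56 ± 0.402 scaled TPM labelled HET and 4.72 ± 0.213 WT (SD, n = 2 each), and the log2 fold change was 0.21 ± 0.15 (SE; 95% limits -0.15 and 0.58), with an adjusted p of 0.643 by limma.

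Cyp51 and Dhcr7 act after lanosterol. Cyp51 encodes the cytochrome P450 that removes the 14-alpha methyl group of lanosterol (ENSMUSG00000001467, chromosome 5, 4081145 to 4104746), and was at 208 and 169 scaled TPM in the libraries labelled HET, against 229 and 196 in WT. In each genotype replicate 1 was the higher pool, and the groups overlapped. Cyp51 had a log2 fold change of -0.18 ± 0.19 (SE; 95% limits -0.63 and 0.28), with an adjusted p of 0.733 by limma; the estimate was 0.078 with TPM left unscaled and 0.034 with the level of Xist as a covariate, and with 1 library left out it ran between -0.33 (without HET replicate 1) and -0.028 (without HET replicate 2). Dhcr7 encodes the reductase that makes cholesterol from 7-dehydrocholesterol (ENSMUSG00000058454, chromosome 7, 143823145 to 143848410), and was at 10.9 and 13.8 scaled TPM in the libraries labelled HET, against 14.3 and 9.50 in WT. The WT pools were the highest and the lowest of the 4, 1.51-fold apart. For Dhcr7 the estimate was a log2 fold change of 0.072 ± 0.22 (SE; 95% limits -0.48 and 0.62), with an adjusted p of 0.912 by limma, and turned to -0.093 without HET replicate 2 and -0.21 without WT replicate 2.

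The genes did not share 1 pattern over the libraries. WT replicate 1 was the highest library for 5 of the 8 (Hmgcs1, Idi1, Sqle, Cyp51 and Dhcr7) and the lowest for Srebf2 and Fdft1. Relative to its own 4-library mean (log2), Idi1 was at -0.41 and -0.10 in the libraries labelled HET and 0.42 and 0.089 in WT, and Hmgcs1 at -0.25 and -0.054 against 0.34 and -0.039. Fdft1 had the opposite order, 0.40 and 0.0080 in the libraries labelled HET against -0.32 and -0.085 in WT. The list of genes higher in male kidney was ordered like Idi1, with medians of -1.26 and 0.05 in the libraries labelled HET against 0.92 and 0.24 in WT. With the level of Xist as a covariate the log2 fold change was 0.093 for Hmgcs1, -0.16 for Idi1 and 0.14 for Fdft1. With the level of Y-linked genes it was -0.16, -0.32 and 0.19 in the same order of genes. A covariate adds a term to a fit of only 4 libraries. Xist was at 60.5 and 57.7 scaled TPM in the libraries labelled HET, against 18.1 and 39.7 in WT. The Xist fit therefore rests largely on the difference between the WT pools, and cannot fully part Xist level from genotype. The part of sex in these differences was not tested. The Xist covariate also turned the sign of the related genes Mvd, Nsdhl, Scap, Lrp1, Abca1 and Scd1. Among 11693 other genes at 5 scaled TPM or more, Mmachc, Sidt2, Sgsm2, Ddx39 and Nsmce1 came closest to the mean profile of the 8, with root mean square differences between 0.0057 and 0.0084 (log2) over the 4 libraries. That mean, 0.021 and -0.086 in the libraries labelled HET and 0.12 and -0.059 in WT, averages genes of opposite order, such as Idi1 and Fdft1. Closeness to it over 4 values does not show likeness to any of the 8.

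**Figure D3:**
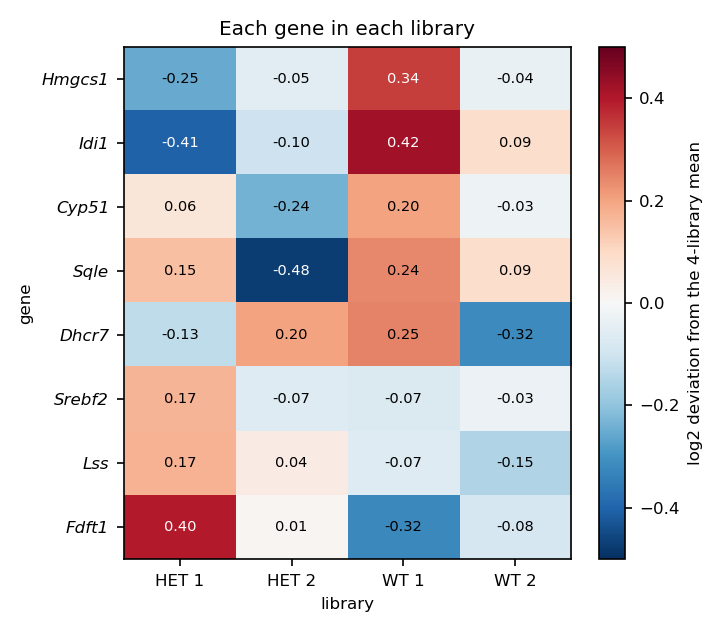
Log2 deviation of each gene (rows) from its own mean over the 4 libraries (columns, HET left of WT); red is above and blue below the mean, and each cell prints its value. WT replicate 1 is red for Hmgcs1, Idi1, Cyp51, Sqle and Dhcr7 and blue for Srebf2, Lss and Fdft1.

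Along the pathway, levels went up and down from step to step. Of 18 enzyme genes in pathway order, 6 had a mean above 40 scaled TPM (Acat2, Hmgcs1, Mvd, Cyp51, Nsdhl and Ebp) and 5 a mean below 10 (Mvk, Idi1, Fdps, Lss and Sc5d), bounds chosen after the values were seen. Of the 13 synthesis genes beside the 8, 0 passed the limma test and 0 had an unadjusted p under 0.05. Their median log2 fold change was -0.074, with estimates from -0.30 to 0.27, and it was 0.17 with unscaled TPM and -0.16 without WT replicate 2. Fdps, which encodes the farnesyl diphosphate synthase just after Idi1, was at 4.33 and 3.44 scaled TPM in the libraries labelled HET, against 3.15 and 3.09 in WT. Mvd, the mevalonate diphosphate decarboxylase gene just before Idi1, was at 65.5 and 59.9 scaled TPM in the libraries labelled HET, against 93.5 and 63.4 in WT. Nsdhl, which encodes a C4-demethylation enzyme, was at 52.4 and 55.2 scaled TPM in the libraries labelled HET, against 78.8 and 55.3 in WT; for both Mvd and Nsdhl WT replicate 1 stood above the other 3 libraries. Without WT replicate 1 the log2 fold change was -0.018 for Mvd and -0.040 for Nsdhl, against -0.30 and -0.29 with it.

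**Figure D4:**
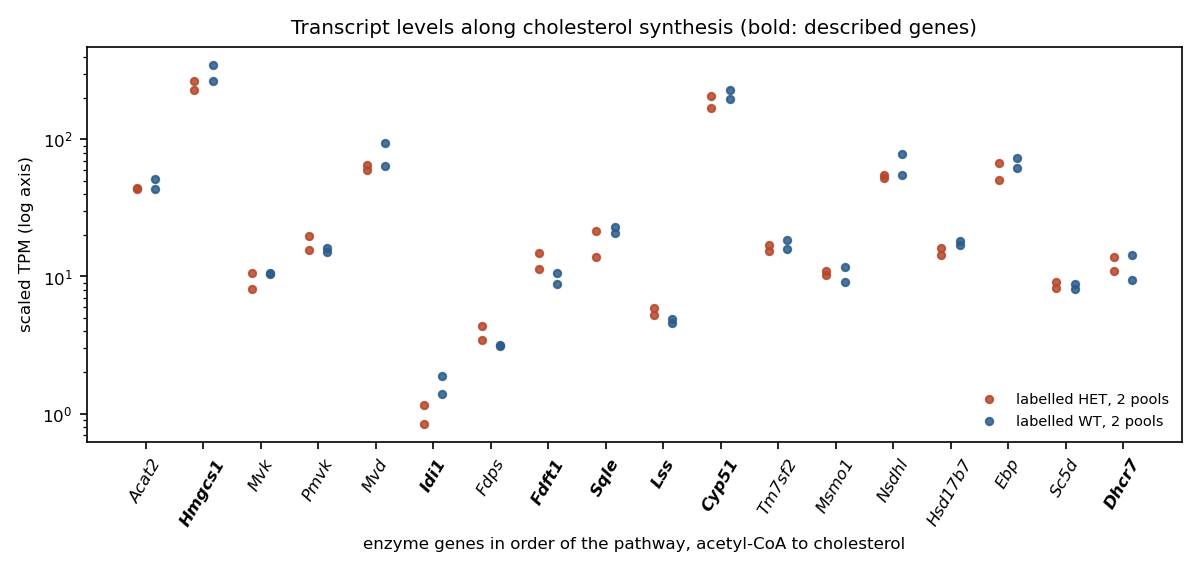
Scaled TPM (log axis) of 18 enzyme genes in the order of cholesterol synthesis, with the 2 libraries labelled HET left of the 2 WT libraries at each gene. Levels run between a mean of 1.32 scaled TPM for Idi1 and means of 277 for Hmgcs1 and 200.4 for Cyp51, far wider than the spread between libraries of 1 gene.

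Genes that act on SREBP were described from a list of 8, of which 0 passed the limma test and 1, Insig1, had an unadjusted p under 0.05, beside 7.26% of all tested genes, so 1 of 8 is near the background. Their median log2 fold change was -0.070, and 0.17 with unscaled TPM; 2 estimates were above 0 and 6 below. The 2 above were Insig1 and Srebf1. Insig1, itself a target of SREBP and a brake on it, was at 19.9 and 18.9 scaled TPM in the libraries labelled HET, against 16.2 and 12.4 in WT. The groups did not overlap, with a log2 fold change of 0.44 ± 0.16 (SE, unadjusted p = 0.0319, limma adjusted p = 0.622), and 0.25 without WT replicate 2. Srebf1, which encodes SREBP1, was at 31.8 and 24.3 scaled TPM in the libraries labelled HET, against 23.7 and 21.4 in WT (limma adjusted p = 0.622). Scap, the gene of the escort protein, was at 29.8 and 27.0 scaled TPM in the libraries labelled HET, against 38.4 and 30.7 in WT (limma adjusted p = 0.623). Srebf1 was thus higher and Scap lower in both libraries labelled HET; with 1 library left out the log2 fold change ran between 0.11 and 0.49 for Srebf1 and between -0.43 and -0.11 for Scap.

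Uptake and intracellular transport were described from a list of 11 genes, of which 0 passed the limma test and 0 had an unadjusted p under 0.05. Of these 11, 8 estimates were above 0 and 3 below, with a median of 0.14 that was 0.30 without WT replicate 2 and 0.048 without WT replicate 1. Both libraries labelled HET lay above both WT libraries for 3 of the 11 and below for 2, beside 21.8% and 23.1% of all tested genes. Lrp1, the gene of a large lipoprotein receptor, was at 11.1 and 15.1 scaled TPM in the libraries labelled HET, against 7.84 and 11.3 in WT, where the groups overlapped. Lrp2, the gene of megalin, was at 358 and 359 scaled TPM in the libraries labelled HET, against 260.1 and 303 in WT. Cubn, the gene of cubilin, which takes up filtered proteins with megalin, was at 88.6 and 92.2 scaled TPM in the libraries labelled HET, against 67.2 and 81.2 in WT. Neither overlapped between the groups (log2 fold changes 0.35 ± 0.18 for Lrp2 and 0.29 ± 0.16 for Cubn, SE, limma adjusted p = 0.622 for both). With 1 library left out the estimates ran between 0.18 and 0.69 for Lrp1 and between 0.15 and 0.42 for Cubn, the lower without WT replicate 1. Lrp2 and Cubn are also markers of proximal tubule. Of the 8 markers of that list 3 estimates were above 0 and 5 below, with a median of -0.13. Those above 0 were Lrp2 and Cubn themselves and Slc5a12 (log2 fold change 0.19). Among those below, Slc34a1, Slc5a2 and Aqp1 had log2 fold changes of -0.24, -0.13 and -0.12. Slc22a6 (-0.76) and Slc7a13 (-1.475), which is also on the list of male-biased genes, lay farther below. Slc22a6 was at 312 and 397 scaled TPM in the libraries labelled HET, against 768 and 463 in WT. The part of these markers in the levels of Lrp2 and Cubn was not tested.

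Efflux, esterification and oxysterol genes were tested for 12 of 13, as Abcg8 was too low; 0 passed the limma test and 0 had an unadjusted p under 0.05. Their median log2 fold change was 0.045, with 7 estimates above 0 and 5 below, and it was -0.14 without HET replicate 1. Abca1, the gene of the exporter that loads HDL and a target of LXR, was at 8.60 and 10.6 scaled TPM in the libraries labelled HET, against 6.05 and 8.53 in WT. The groups did not overlap, though HET replicate 1 and WT replicate 2 were nearly equal (log2 fold change 0.38 ± 0.20 SE, limma adjusted p = 0.622). The estimate was 0.15 without WT replicate 1, 0.24 without HET replicate 2 and 0.61 without WT replicate 2. Nr1h3, which encodes LXR alpha, was at 40.5 and 41.1 scaled TPM in the libraries labelled HET, against 53.2 and 46.3 in WT, lower in both libraries labelled HET. Cyp7b1, an oxysterol hydroxylase gene that is higher in male kidney, was at 25.5 and 81.8 scaled TPM in the libraries labelled HET, against 170 and 117 in WT (log2 fold change -1.61 ± 0.66 SE, limma adjusted p = 0.622). The estimate was -2.45 without HET replicate 2 (limma adjusted p = 0.0330) and -0.78 without HET replicate 1 (limma adjusted p = 0.543); in these fits the HET arm is 1 library, assumed to vary like the WT pools.

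Fatty acid genes known as targets of SREBP1 had a median log2 fold change of 0.70 over 8 genes, with 7 estimates above 0 and 1 below; 0 passed the limma test and 3 had an unadjusted p under 0.05, beside 7.26% of all tested genes. The groups did not overlap for any of the 8, 7 above and 1 below, beside 45% of all tested genes without overlap. The median was 0.36 without WT replicate 1 and 0.97 without WT replicate 2. Fasn, the fatty acid synthase gene, was at 60.5 and 76.6 scaled TPM in the libraries labelled HET, against 28.3 and 34.3 in WT (log2 fold change 1.12 ± 0.18 SE, limma adjusted p = 0.622). In the authors' deposited table Fasn is listed with a log2 fold change of 0.94 and an adjusted p of 1.49e-05. That table of 97 genes holds 0 of the 8 cholesterol genes and, of the related lists, Fasn alone. Beside the 54232 genes with TPM, 97 is a small share, so 0 of 8 says little. The authors' comparison is not the limma fit used here, which called 2 genes, so the adjusted p-values of Fasn come from unlike tests. Scd1, the stearoyl-CoA desaturase gene, was at 571 and 522 scaled TPM in the libraries labelled HET, against 207 and 446 in WT. Acaca, which encodes acetyl-CoA carboxylase 1, was at 2.36 and 3.72 scaled TPM in the libraries labelled HET, against 1.203 and 1.90 in WT. In all 3 genes both libraries labelled HET were the higher ones, and the log2 fold change of Scd1 was 0.29 without WT replicate 1, against 0.84 with it. Whether the fatty acid genes differ from the 8 cholesterol genes was not tested, and fat markers stood beside them. The 7 fat markers summed to 95 and 179 scaled TPM in the libraries labelled HET and 93.0 and 162 in WT, and did not move together: 5 estimates were above 0, with Adipoq at 26.0 and 62.7 in the libraries labelled HET against 22.6 and 40.8 in WT. Ucp1 and Cidea, known from brown fat, were below WT in both libraries labelled HET, Ucp1 at 11.1 and 8.70 against 17.7 and 34.7 and Cidea at 18.7 and 18.2 against 20.0 and 30.0; the part of fat in these levels was not tested.

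**Figure D5:**
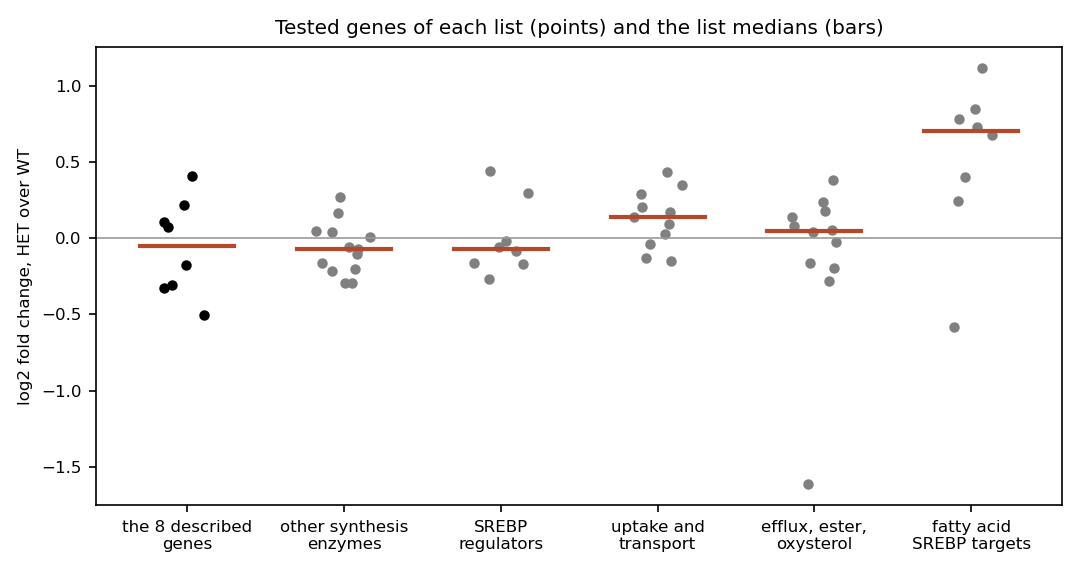
Log2 fold change, HET over WT (vertical axis), of each tested gene (points) in the 8 described genes and 5 related lists, with list medians as bars; horizontal scatter has no meaning. Medians of the 8 genes, the other synthesis enzymes and the SREBP regulators lie near 0, and that of the fatty acid genes at 0.70.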

How the data were processed

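Poly(A) RNA of 4 kidney pools, 2 labelled HET and 2 WT, was sequenced. The authors deposited a table of TPM per gene with summed exon lengths, made per the file headers from alignments marked unique, and a table of their own comparison, which holds a mean normalized signal, log2 fold changes and their errors, a test score and p-values. The submitters' processing notes name mm10 as the build, and the tools DESeq2, DESeq and edgeR with no versions; the aligner, counter and strand setting were not given in the sources used here.

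TPM multiplied by exon length gave whole reads for 100% of values above 0 (tolerance 0.001 reads). These reads served for depth, filtering, limma-voom and TMM factors, computed as 1.05 and 1.07 for HET replicates 1 and 2 and 0.901 and 0.989 for WT replicates 1 and 2; TPM were brought to the resulting effective library sizes. The filter asked for 10 reads, at median depth, in at least 2 libraries, and 15 over all, which kept 22356 of 54232. The test was limma 3.58.1 (R 4.3.3, variance trend, robust moderation with statmod 1.5.0) on log2(TPM + 0.5), Benjamini-Hochberg over all genes tested, called below 0.1, the bound in the authors' own comparison. Fold changes are on that scale, which understates low genes. An adjusted p of 0.622 recurs because the adjustment gives many genes the same value. The script was tested on simulated reads with planted changes far larger than the differences seen in the 8 genes. That test does not bear on changes of their size. Both pools of each genotype differed by more than counting noise (chi-square per degree of freedom 73.2 for HET and 70.6 for WT), so none was a copy. All 8 genes have the same start and end in GENCODE M21.

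The 8 genes and all lists were chosen with earlier results of these data known. From each related list the text names called genes, the 3 with the largest absolute change at 1 scaled TPM or more, and Insig1, Scap, Abca1 and Srebf1, except that some genes are not reported here and were left out of the lists; likeness is the root mean square difference over libraries. Other genes (Kap, Ddx3y, further markers and those sharing exon bases) were named after their values were seen.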

Additional observations from a re-analysis of the deposited data

How the results depend on the processing

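Of 345 values, 23 named genes under each of 15 alternatives, 331 kept their direction and side of the threshold, 13 changed sign and 1 (Cyp7b1, -2.45 without HET replicate 2) was called. In all 15, 0 of the 8 cholesterol genes were called; as 2 genes of all were called, this says little of stability. The count of all genes called was 2 in the main setting, 5 with a filter of 1 CPM, 1 without robust moderation, 32 with Y-linked level as a covariate, 0 with no filter on low genes, limma-voom, the replicate block or Xist level, and, with 1 library left out, 50 without HET replicate 1, 65 without HET replicate 2, 0 without WT replicate 1 and 8 without WT replicate 2. The replicate number did not pair the pools by the labels, and deviations of same-numbered pools correlated at 0.123 over genes. With the replicate block the median of the 8 was -0.052, as it had to be, since the block is balanced over genotypes. The other filters on low genes and the fit without robust moderation also leave the estimate of each gene unchanged by construction. No sign among the 345 values could change in these settings. None of the 23 named genes was called in the main setting, so a kept side of the threshold says little. TPM without scaling moved the median of all genes by 0.20 and the list medians to 0.20 (the 8), 0.17 (other synthesis), 0.17 (SREBP regulators), 0.35 (uptake), 0.22 (efflux) and 0.95 (fatty acid), and Cyp51 to 0.078. With Xist level the medians were 0.070 (the 8), 0.038 (other synthesis), 0.011 (regulators), -0.086 (uptake), -0.058 (efflux) and 0.22 (fatty acid), and signs changed for Hmgcs1 (0.093), Cyp51 (0.034), Abca1 (-0.068), Lrp1 (-0.047), Mvd (0.26), Nsdhl (0.22), Scap (0.041) and Scd1 (-0.28). With Y-linked level the sign changed for Srebf2 (-0.012), and the efflux median was -0.14. With 1 library left out the medians ran between -0.25 and 0.0097 (the 8), -0.16 and -0.010 (other synthesis), -0.097 and -0.039 (regulators), 0.048 and 0.30 (uptake), -0.14 and 0.18 (efflux), and 0.36 and 0.97 (fatty acid); signs changed for Srebf2 (-0.014) and Dhcr7 (-0.21 and -0.093, range -0.21 to 0.36). The Xist fit cannot fully part Xist level from genotype, as stated above. The cause of these shifts was not tested. With 2 pools a genotype, an exact permutation test of 1 gene could not pass the threshold, and Idi1, at 89 to 192 reads, had the least depth of the 8.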
